A study of Mus musculus with 10 samples.

Results

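The genes examined here encode the parts of the mitochondrial respiratory chain and of the ATP synthase that are read from nuclear DNA, together with the assembly factors that carry complex I names. They were chosen by symbol alone, as those beginning with Ndufa, Ndufb, Ndufc, Ndufs, Ndufv, Uqcr or Atp5, those named Sdha to Sdhd, and those beginning with Cox4 to Cox8. Of the 29527 genes of the table, 96 met this rule, and 12 pseudogenes and provisional gene models were left out by it. Genes whose mean log2 value over the samples reached 3.32, the log2 of 10, were tested, which were 89 of the 96 genes and 17268 of all genes. The 96 genes were 7 core subunits, 30 accessory subunits and 8 assembly factors of complex I, 4 subunits of complex II, 8 of complex III, 19 genes of complex IV counting alternative isoforms, 17 genes of the ATP synthase, and 3 genes that carry such a name without being a subunit. The last were Atp5s and Atp5sl, and Cox4nb, an older symbol of the endoplasmic reticulum protein gene Emc8. Cyc1, which encodes the cytochrome c1 subunit of complex III, does not carry a Uqcr name and was counted among the related genes.

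RNA had been sequenced in bulk from the dissected intermediate lobe (IL) of the pituitary of 10 mice aged 2 to 3 months, each giving its own library. They were 4 wild type (WT), 3 p27-/- and 3 p27-/-;Sox2+/- animals. In both mutants the gene of the cell cycle inhibitor P27, Cdkn1b, carries a null allele in every cell from conception, on a mixed genetic background. The compound mutant has in addition lost 1 of its copies of Sox2. This transcription factor gene is expressed in pituitary stem cells and, at lower levels, in the hormone cells of the IL. Both mutants share the loss of p27, so by design they differ in the Sox2 copy. Mice of both sexes were used in each genotype, but not in the same shares in WT and the mutants. The deposited values are log2 values normalised by the authors, and the read depth of each library cannot be read from them, so the precision is set by the number of mice.

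The respiratory chain takes electrons from NADH at complex I and from succinate at complex II, passes them over ubiquinone, complex III and cytochrome c to complex IV, where oxygen is reduced, and pumps protons at complexes I, III and IV. The ATP synthase lets the protons flow back through a ring of c-subunits in the membrane and turns the rotation into ATP in its catalytic head. All complexes but II also hold subunits encoded by mitochondrial DNA, so 2 genomes have to supply parts of each. Melanotrophs, the hormone cells of the IL, make and secrete large amounts of peptide from pro-opiomelanocortin.

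The targeted genes were lower in the mutants only in part, and tissue make-up varied between samples. Cdkn1b had log2 values of 8.39 to 8.85 in WT, 8.04 to 8.27 in p27-/- and 7.73 to 8.10 in p27-/-;Sox2+/- samples, so that most of its signal remained in the null mice, and the table does not show which part of the gene it comes from. Sox2 values of 6.88 to 7.07 in the compound mutants lay just under the lowest of the other samples, 7.08 in p27-/- replicate 3, and its adjusted p was 0.0811 against WT and 0.791 between the mutants. The 7 melanotroph markers were all present, with a summed level, most of it Pomc, of 18.20 to 19.13 as a log2 value in WT, 18.75 to 19.16 in p27-/- and 18.53 to 18.70 in p27-/-;Sox2+/- samples. Single markers passed in opposite directions in p27-/- against WT, with the prohormone convertase genes Pcsk1 at -0.45 (adjusted p = 0.0206) and Pcsk2 at 0.53 (adjusted p = 0.0352) and Oacyl at 0.77 (adjusted p = 0.00161). Endothelial and stem cell markers tended to lower values in p27-/- than in WT samples, but neither list was separated by both its summed level and its mean deviation. The summed log2 level of 6 endothelial markers was 8.20 to 8.54 in p27-/- against 8.60 to 8.99 in WT samples. Their mean deviation overlapped, at -0.30 to -0.05 against -0.08 to 0.39. Of these markers Kdr alone passed in limma, at -0.83 (adjusted p = 0.00966). For 6 stem cell markers the mean deviation was -0.22 to -0.04 against -0.03 to 0.15, while the summed levels overlapped, and none of the 5 tested passed. Hormone genes of the adjoining anterior lobe were present as well and varied within genotypes. Their summed log2 level was 13.87 to 17.76, 12.77 to 16.55 and 13.41 to 14.82 in WT, p27-/- and compound mutant samples. Of the 7 anterior lobe markers tested, Fshb alone passed against WT. Its limma estimate was -2.04 after p27 loss alone (adjusted p = 0.028) and -2.27 with 1 Sox2 copy also missing (adjusted p = 0.0294). For Fshb, WT replicate 1, at 7.15, lay within the range of both mutants, and the other WT samples lay above it, at 9.24 to 9.64. The part of tissue make-up in the values given here was not tested, and in bulk RNA fewer cells of a type and less RNA per cell cannot be told apart.

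Respiratory chain genes were among the more abundant transcripts of the IL. Compared per kilobase of exon, so that short and long genes can be set side by side, the 89 tested genes had a median log2 level of 8.23 (quartiles 7.52 and 9.25), against 5.75 (4.38 and 6.97) over all tested genes with a known length, and 46 of the 89, or 51.7%, lay among the highest 10% of those genes. Complex IV had the highest median, 9.85, followed by the ATP synthase at 8.71, complex III at 8.28, complex II at 8.24, the accessory subunits of complex I at 8.10 and its core subunits at 7.82. The complex I assembly factors, which help to build the complex without staying in it, had a median of 6.68, and none of the 8 was among the highest 10%. The highest single level per kilobase was that of Atp5b, the catalytic beta subunit of the ATP synthase, at 10.92, followed by Cox4i1 at 10.82 and Atp5l at 10.66. The lowest were Ndufaf5 at 5.18, Atp5sl at 5.25 and Ndufaf6 at 5.28. Lengths were summed over all annotated exons of a gene, which lowers the level of genes with long alternative exons, such as Ndufab1, for which 6883 bases of exon are annotated. Without division by length, mean log2 values ran from 6.60 for Ndufb4 to 9.53 for Ndufa10 in the accessory subunits of complex I and from 5.59 for Ndufaf6 to 8.56 for Ndufaf4 in its assembly factors. They ran from 8.01 for Sdhb to 11.42 for Sdha in complex II, from 7.84 for Uqcrb to 9.82 for Uqcrc2 in complex III, from 4.63 for Cox6b2 to 10.62 for Cox7a2l in complex IV and from 7.20 for Atp5g2 to 13 for Atp5b in the ATP synthase.

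**Figure D1:**
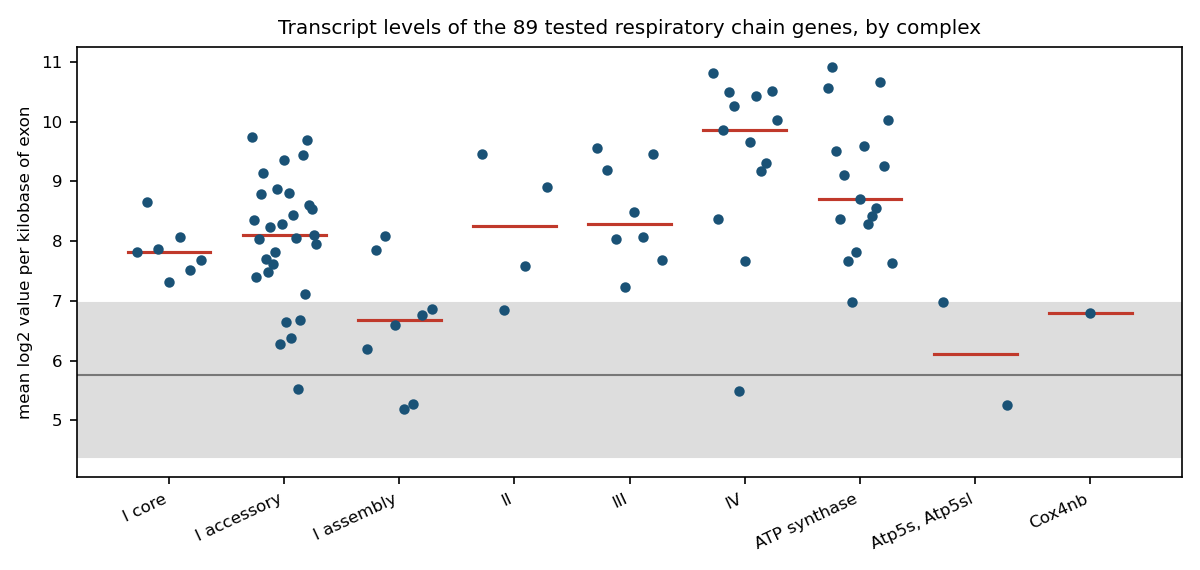
Mean log2 value per kilobase of exon over the 10 samples (vertical axis) for each of the 89 tested genes, as points, by complex. Red lines are group medians, the grey line is the median of all tested genes (5.75) and the grey band runs between their quartiles (4.38 and 6.97); complex IV (median 9.85) and the ATP synthase (8.71) sit highest, and the complex I assembly factors (6.68) within the band.

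Where subunits come as isoform pairs, the ubiquitous form had the higher level. Mean log2 levels per kilobase were 10.82 for Cox4i1 against 1.35 for Cox4i2, the form of lung, 10.49 for Cox6a1 against -0.80 for the muscle form Cox6a2, 9.65 for Cox7a2 and 10.43 for the related Cox7a2l against 4.27 for the muscle form Cox7a1, and 10.51 for Cox8a against 2.37 for the muscle form Cox8b. Cox7b had a level per kilobase of 9.17 against 0.77 for Cox7b2, Cox6b1 of 10.26 against 5.49 for Cox6b2, the form of testis, and Ndufa4, now counted as a complex IV subunit, of 10.02 against 1.74 for the hypoxia-inducible Ndufa4l2. Of the alternative forms only Cox6b2 passed the filter, with a log2 value, not divided by length, between 4.38 and 4.82 in the 10 samples. The 7 genes under the filter were Cox4i2, Cox6a2, Cox7a1, Cox7b2, Cox8b, Ndufa4l2 and a second identifier of Ndufb8. Their log2 values stayed low in every genotype, with Cox7a1 the highest of them, between 2.73 and 3.06, and Cox6a2 the lowest, between -1.41 and -1.37. Values of Cox4i2 lay between 0.96 and 1.14, of Cox7b2 between -0.14 and 0.04, of Cox8b between 0.86 and 1.02, of Ndufa4l2 between 1.61 and 1.74 and of the second Ndufb8 identifier between -1.29 and -1.18.

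Loss of p27 went with slightly higher values of most respiratory chain genes, but few single genes passed the test. Against WT, 74 of the 89 tested genes (83.1%) had a higher mean in p27-/- samples, compared with 51.6% of all tested genes, and their median log2 fold change was 0.11 against 0.01 over all genes. Of the 89 genes, 2 passed an adjusted p of 0.05 in limma, Atp5b and Cox7c, both higher, whereas 7.78% of all tested genes passed in either direction and 3.16% were higher. The share of members that passed was thus below that of all genes. A further 12 genes had an unadjusted p under 0.05 in limma, all with higher means in p27-/- samples. In all, 14 of the 89 members were under that value, a smaller share than the 4155 of 17268 tested genes. The p27-/- samples all lay above all WT samples for 8 of the 89 genes and below them for none, against 10.2% and 10.3% of all tested genes. The 8 genes were Atp5b, Atp5j, Cox7c, Ndufab1, Ndufaf1, Ndufb2, Ndufb3 and Uqcrfs1.

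**Figure D2:**
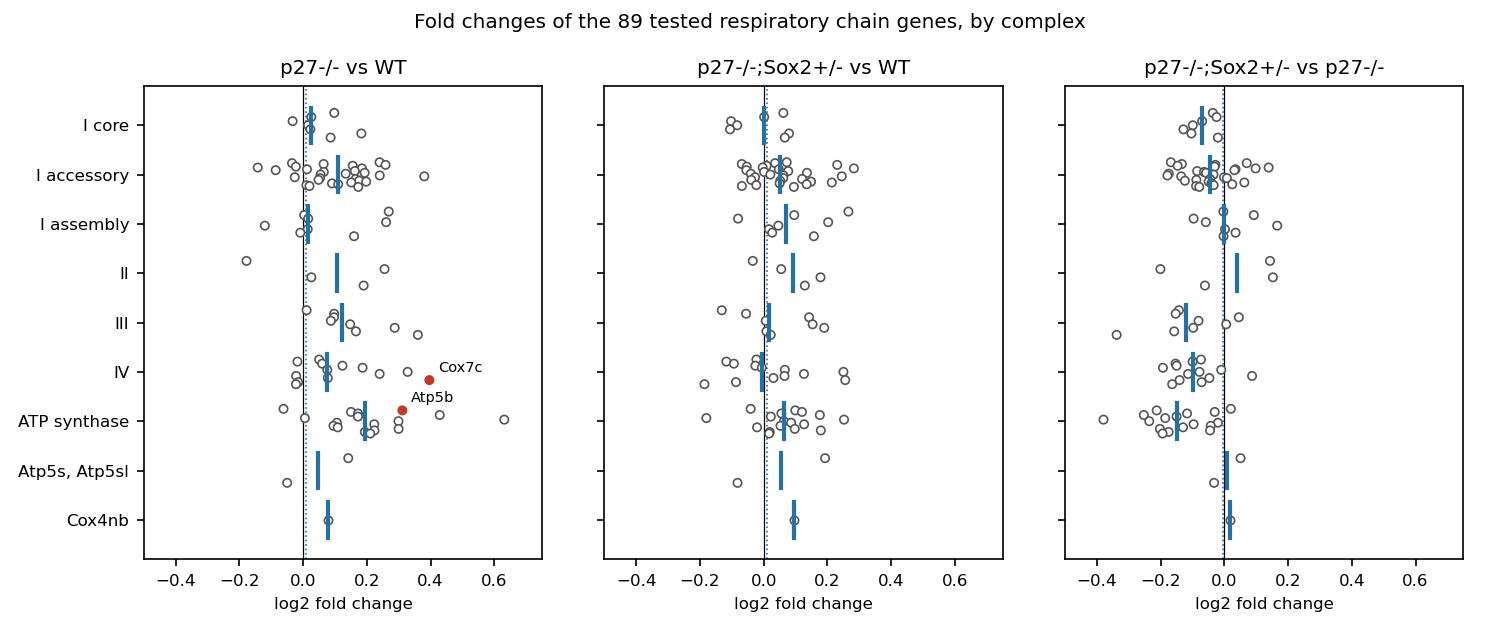
Log2 fold change (horizontal axis) of each tested gene, as points, by complex, in the 3 comparisons. Filled red points passed an adjusted p of 0.05 in limma, blue bars are group medians and the dotted line is the median of all tested genes; in p27-/- against WT only Atp5b (0.31) and Cox7c (0.40) passed, and 16 of 17 ATP synthase genes lie above 0.

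The ATP synthase had the highest median of the groups in p27-/- samples. Its 17 genes had a median log2 fold change of 0.19, 16 of them had higher means than in WT, and 6 had an unadjusted p under 0.05, of which Atp5b passed after adjustment. Over all tested genes, 4155 of 17268 had such an unadjusted p in this comparison. The log2 values of Atp5b (ENSMUSG00000025393, GRCm38 chromosome 10, from 128083307 to 128090388) were 12.96, 12.79, 12.95 and 12.80 in the WT samples, 13.24, 13.20 and 13.12 in p27-/- and 12.90, 13.01 and 13.02 in p27-/-;Sox2+/- samples. Every p27-/- sample was above every sample of the other genotypes, while WT and compound mutant samples overlapped. Its log2 fold change was 0.31 in p27-/- against WT (standard error (SE) 0.085, adjusted p = 0.0406), 0.10 in the compound mutant against WT (adjusted p = 0.582) and -0.21 between the mutants (SE 0.091, adjusted p = 0.681). The call rested on single libraries: without 1 of p27-/- replicates 1, 2 and 3, WT replicates 2, 3 and 4 or p27-/-;Sox2+/- replicate 2, the adjusted p of Atp5b against WT was 0.137, 0.127, 0.0975, 0.0695, 0.0547, 0.0986 and 0.0658.

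Among the other genes of the catalytic head and its stalk, Atp5e, the epsilon subunit of the rotor, had values of 10.20, 9.76, 9.53 and 9.48 in WT, 10.04, 10.24 and 10.23 in p27-/- and 9.81, 10 and 9.94 in p27-/-;Sox2+/- samples. WT replicate 1 lay as high as the p27-/- samples and the other WT samples lay below all of them. Its log2 fold change of 0.43 (SE 0.14) had an adjusted p of 0.0813. Atp5a1, the alpha subunit that alternates with beta in the head, had a log2 fold change of -0.06 (adjusted p = 0.737), and was the only ATP synthase gene with a lower mean in p27-/- samples. The gamma and delta subunit genes Atp5c1 and Atp5d had log2 fold changes of 0.15 and 0.17, with adjusted p-values of 0.443 and 0.298.

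The c-subunit of the membrane ring is encoded by 3 genes with the same mature protein, and they differed in level and in spread. Per kilobase, mean log2 levels were 8.71 for Atp5g3, 7.82 for Atp5g2 and 6.98 for Atp5g1, the last with 4908 bases of exon annotated against 647 for Atp5g2. Atp5g2 had the largest estimate of all members in p27-/- samples, 0.63, and also the widest spread. Its values were 7.73, 6.62, 6.44 and 6.93 in WT, 7.80, 7.60 and 7.28 in p27-/- and 6.89, 7.29 and 7.36 in p27-/-;Sox2+/- samples. The genotypes overlapped through WT replicate 1, and the adjusted p was 0.134 (SE 0.25). Atp5g3 was higher in p27-/- samples by 0.30 (SE 0.10, adjusted p = 0.086) and Atp5g1 by 0.01 (adjusted p = 0.981). Atp5l, the g subunit, had a log2 fold change of 0.30 (adjusted p = 0.104) and Atp5j, coupling factor 6 of the peripheral stalk, of 0.22 (adjusted p = 0.205).

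The second gene that passed was Cox7c, a small subunit of complex IV (ENSMUSG00000017778, GRCm38 chromosome 13, from 86044798 to 86046795). Its log2 values were 9.41, 9.45, 9.01 and 9.26 in WT, 9.76, 9.60 and 9.67 in p27-/- and 9.38, 9.62 and 9.60 in p27-/-;Sox2+/- samples. All p27-/- samples lay above all WT samples, and the compound mutant samples reached from the WT range into that of p27-/-. Compared with WT, its log2 fold change was 0.40 for p27-/- (SE 0.11, adjusted p = 0.0429) and 0.26 for p27-/-;Sox2+/- samples (adjusted p = 0.236). Without 1 of p27-/- replicates 1, 2 and 3, WT replicates 3 and 4 or p27-/-;Sox2+/- replicates 2 and 3, the adjusted p of Cox7c in p27-/- against WT was 0.151, 0.0898, 0.129, 0.0849, 0.0915, 0.0619 and 0.0511. A processed copy, Cox7c-ps1, was counted at a mean of 6.59, and how reads were divided between the copies could not be checked. Of the 13 tested complex IV genes, 9 had higher means in p27-/- samples, with a median of 0.08. After Cox7c the next was Cox6c at 0.33 (adjusted p = 0.190), and Cox4i1, the largest of the nuclear subunits, had a log2 fold change of 0.05.

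**Figure D3:**
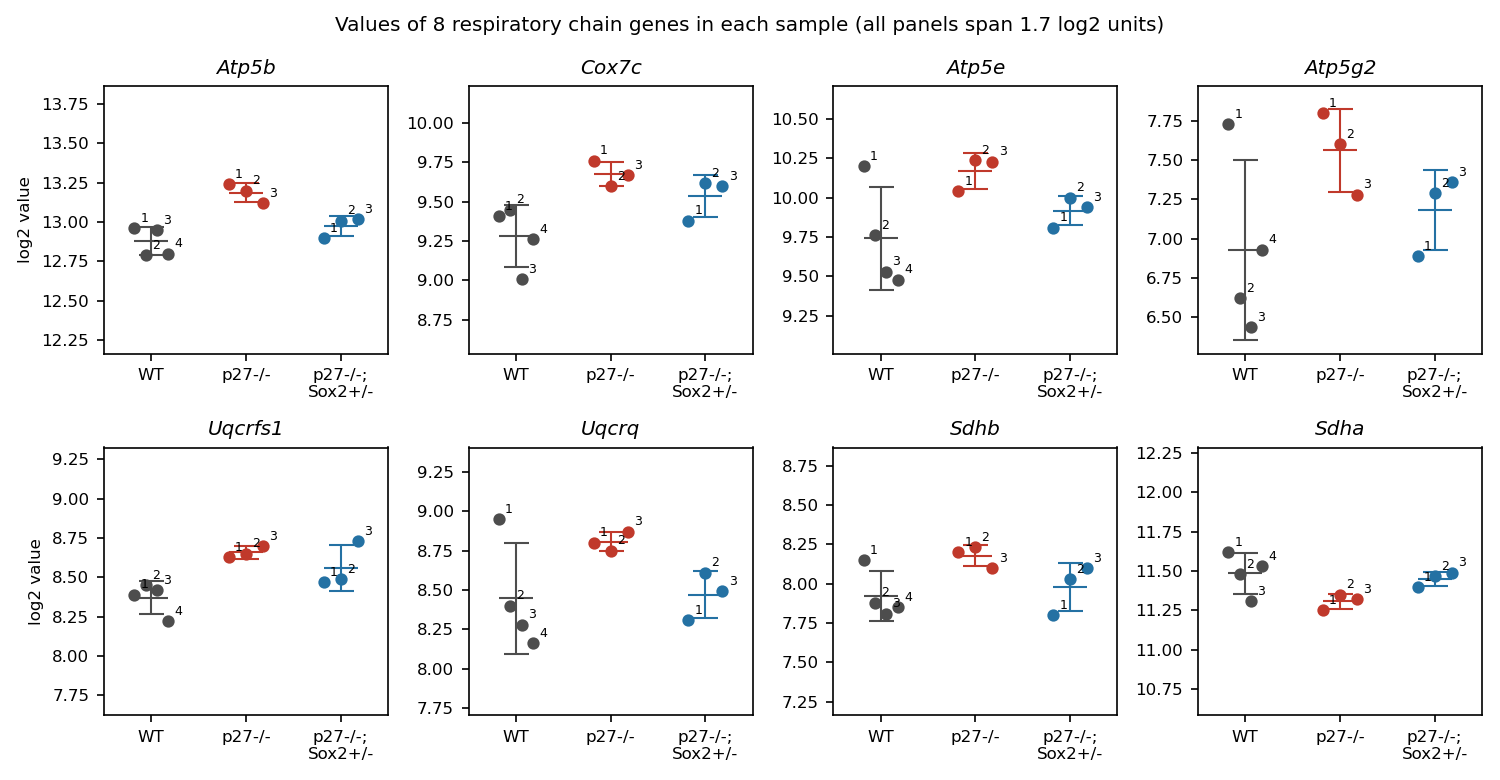
Log2 values (vertical axes, each spanning 1.7 units) of 8 respiratory chain genes in every sample, with the replicate number beside each point and the mean and SD of each genotype as lines (n = 4, 3 and 3). The p27-/- samples clear all WT samples for Atp5b, Cox7c and Uqcrfs1. For Atp5e, Atp5g2, Uqcrq and Sdhb WT replicate 1 lies among or above them, and for Sdha the p27-/- samples and WT replicate 3 are the lowest.

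All 8 genes of complex III had higher means in p27-/- than in WT samples, with a median of 0.12, and none passed the test. Uqcrfs1, the Rieske iron-sulphur protein that takes electrons from ubiquinol, had values of 8.39, 8.45, 8.42 and 8.22 in WT, 8.63, 8.65 and 8.70 in p27-/- and 8.47, 8.49 and 8.73 in p27-/-;Sox2+/- samples. Samples of both mutants lay above all WT samples. Its log2 fold changes were 0.29 with p27 lost (SE 0.097, adjusted p = 0.0852) and 0.19 for the compound mutant (adjusted p = 0.326). Uqcrq, a small membrane subunit, was higher in p27-/- by 0.36 (adjusted p = 0.171), but WT replicate 1, at 8.95, exceeded all p27-/- samples, which lay between 8.75 and 8.87. The core proteins Uqcrc1 and Uqcrc2 had log2 fold changes of 0.09 and 0.15 (adjusted p = 0.650 and 0.448).

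In complex II, which is also the succinate dehydrogenase of the tricarboxylic acid cycle, the estimates of the subunits pointed in different directions. Sdha, the flavoprotein that oxidises succinate, had the lowest estimate of all 89 members, -0.18 (SE 0.085, adjusted p = 0.220). Its values were 11.62, 11.48, 11.31 and 11.53 in WT, 11.25, 11.35 and 11.32 in p27-/- and 11.40, 11.47 and 11.49 in p27-/-;Sox2+/- samples. The p27-/- samples lay below all compound mutant samples and overlapped with the lowest WT sample. Sdhb, the iron-sulphur subunit that is the partner of Sdha, had values of 8.15, 7.88, 7.81 and 7.85 in WT, 8.20, 8.23 and 8.10 in p27-/- and 7.80, 8.03 and 8.10 in p27-/-;Sox2+/- samples, and its p27-/- mean was higher than the WT mean by 0.26 (adjusted p = 0.177). The membrane anchors Sdhc and Sdhd had log2 fold changes of 0.03 and 0.19 (adjusted p = 0.909 and 0.348).

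Complex I, the largest of the complexes, contributed no gene that passed. Its 7 core subunits, which carry the flavin and the iron-sulphur clusters, had a median log2 fold change of 0.03 in p27-/- samples, from -0.03 for Ndufs3 to 0.18 for Ndufv1 (adjusted p = 0.863 and 0.380), with Ndufs1, the largest subunit of the core, at 0.10 (adjusted p = 0.524). The 29 tested accessory subunits had a median of 0.11 and 24 had higher means. The 2 with the smallest p were the membrane arm subunits Ndufb2 at 0.24 (SE 0.088, adjusted p = 0.110) and Ndufb3 at 0.38 (SE 0.14, adjusted p = 0.125). Ndufb3 had values of 8.43, 8.47, 7.75 and 8.26 in WT and 8.68, 8.62 and 8.52 in p27-/- samples, so that WT replicate 3 alone lay far below the rest. The value of Ndufb4, 6.60 on average, is uncertain, since a near copy, Ndufb4c, was counted at 8.53, and Ndufa12 likewise has a copy, Ndufa12-ps, counted at 6.84. Of the 8 assembly factors, Ndufaf1 had a log2 fold change of 0.27 (adjusted p = 0.195) and Ndufaf4 of 0.26 (adjusted p = 0.298), and the median was 0.02. Atp5s and Atp5sl had log2 fold changes of 0.14 and -0.05, and Cox4nb of 0.08.

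With 1 Sox2 copy removed as well, the median of the members lay nearer to WT when all samples were used. Without p27-/-;Sox2+/- replicate 1 it was 0.12 against WT, compared with 0.11 for p27-/- in the same fit. No member passed the test against either genotype. In p27-/-;Sox2+/- against WT, 62 of the 89 genes (69.7%) had higher means, against 52.1% of all genes, with a median log2 fold change of 0.05 against 0.01. None passed an adjusted p of 0.05 in limma, where 2.71% of all tested genes did, and 3 had an unadjusted p under 0.05, Ndufa5 at 0.28, Ndufaf1 at 0.27 and Cox7c at 0.26. Over all tested genes, 3075 of 17268 had such an unadjusted p. The samples of the compound mutant all lay above WT for 2 genes, Ndufaf1 and Uqcrfs1, and below for none, against 7.02% and 8.01% of all genes. Between the mutants, 69 of the 89 genes had lower means in p27-/-;Sox2+/- than in p27-/- samples, with a median of -0.07 against 0.00 over all genes. None passed in limma, where 0.145% of all genes did, and Atp5b and Atp5g3, at -0.21 and -0.24, had an unadjusted p under 0.05. Between the mutants 1148 of all 17268 tested genes had such an unadjusted p. The compound mutant samples were all lower for 10 members and all higher for 1, Sdha, against 7.75% and 7.51% of all genes. Both comparisons with WT use the same 4 WT samples, and their estimates are therefore not independent of each other.

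The WT mice, and likewise the compound mutants, differed among themselves by more than the genotype means did. The median deviation of the 89 genes from their own means was 0.17, -0.08, -0.16 and -0.13 on the log2 scale in the 4 WT samples, 0.10, 0.08 and -0.01 in p27-/- and -0.12, 0.02 and 0.11 in p27-/-;Sox2+/- samples. By genotype, these medians averaged -0.05 ± 0.15 (WT, SD, n = 4), 0.06 ± 0.06 (p27-/-, SD, n = 3) and 0.002 ± 0.11 (p27-/-;Sox2+/-, SD, n = 3), so the genotypes overlapped. WT replicate 1 had the highest value among the WT samples for 66 of the 89 genes (74.2%), against 27.7% of all tested genes. Likewise p27-/-;Sox2+/- replicate 1 was the lowest of its genotype for 66 of them (74.2%), against 35.2% of all genes. Xist, used here as a mark of female sex, was low in WT replicates 3 and 4, at log2 values of 9.29 and 9.22. It was also low in p27-/- replicate 2 (8.78) and p27-/-;Sox2+/- replicate 1 (8.89), and 14.32 to 15.01 in the other samples. The low-Xist samples thus had the lowest medians in WT and in the compound mutant, but not in p27-/-. With Xist as a covariate, the median log2 fold change in p27-/- against WT was 0.09. The part of sex in this spread was not tested. Over all tested genes the sample medians lay between -0.01 and 0.00, which the authors' normalisation largely fixes. Without WT replicate 1, the median in p27-/- against WT was 0.20 and 8 members passed, namely Atp5b, Atp5e, Atp5g2, Atp5l, Atp5md, Cox6b1, Cox7c and Uqcrq. These were 8.99% of the members, close to the 9.9% of all tested genes that passed in the same fit. Without p27-/-;Sox2+/- replicate 1, the median between the mutants was -0.005, and 43 rather than 20 of the 89 genes had higher means in the compound mutant.

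**Figure D4:**
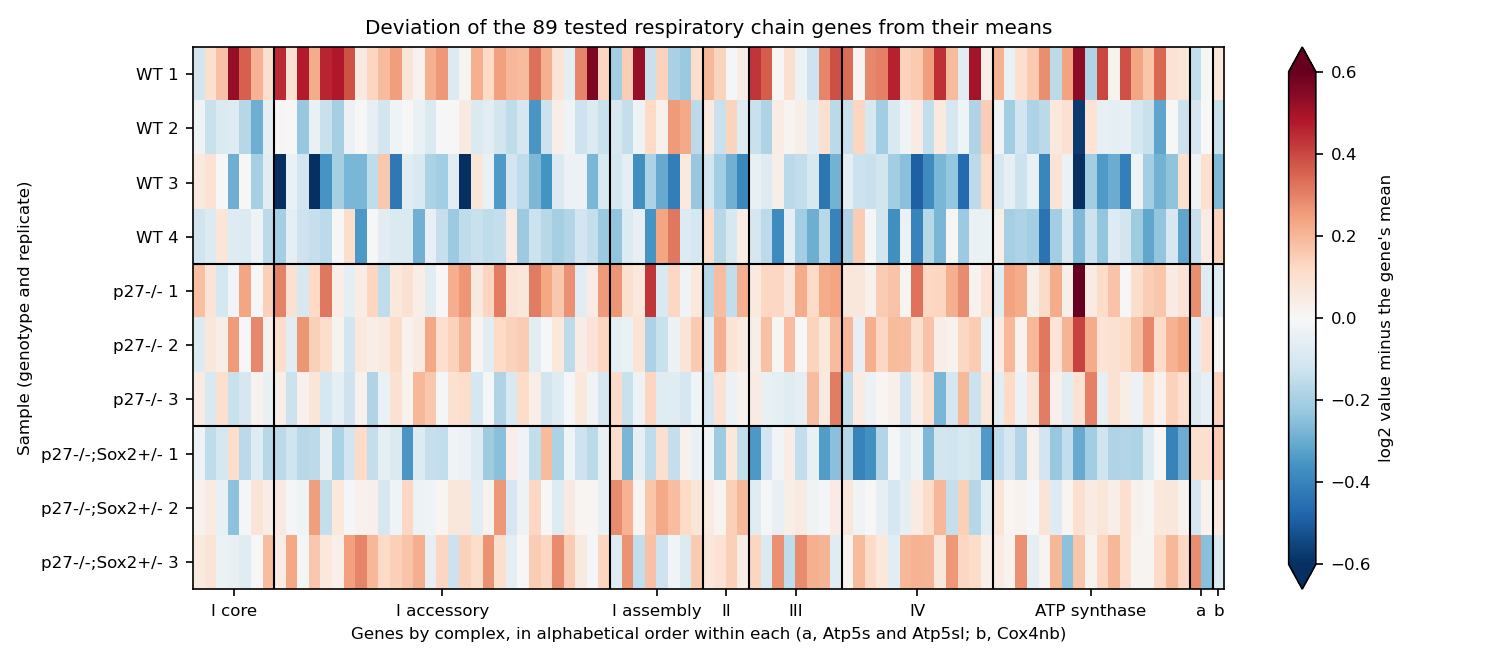
Log2 value of each of the 89 tested genes (columns, by complex) minus its mean, in every sample (rows). Red is above the mean and blue below, with colours saturating at 0.6; WT replicate 1 is above the mean for 73 of 89 genes, WT replicates 2, 3 and 4 for 26, 11 and 13, and p27-/-;Sox2+/- replicate 1 for 14.

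Short genes in general shifted in the same direction. Members had a median exon length of 1322 bases against 3620 over all tested genes, and the median deviation of the shortest of 10 length classes of all genes was 0.06, -0.02, -0.07 and -0.05 in the WT samples, 0.03, 0.04 and 0.00 in p27-/- and -0.04, -0.01 and 0.03 in p27-/-;Sox2+/- samples. WT replicate 1 was thus the highest and WT replicate 3 the lowest sample in both measures. With each sample centred within these 10 classes, the members' median log2 fold changes were 0.06 in p27-/- against WT, 0.02 in p27-/-;Sox2+/- against WT and -0.05 between the mutants, and Atp5b and Cox7c still passed, with adjusted p-values of 0.0477 and 0.0443.

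The subunits encoded by mitochondrial DNA had lower rather than higher means in most cases, and none passed the test. All 13 were tested, with 3 under an unadjusted p of 0.05 in p27-/- against WT and none in the other comparisons. Over all tested genes, 4155 of 17268 were under it in p27-/- against WT. In p27-/- samples 12 of the 13 had lower means than in WT, with a median log2 fold change of -0.28, and the lowest was mt-Nd2, a membrane arm subunit of complex I, at -0.66 (SE 0.26, adjusted p = 0.138), before mt-Nd5, of the same arm, at -0.49 (adjusted p = 0.169). Their median deviation was 0.48, -0.40, 0.26 and 0.02 in the WT samples, 0.11, -0.30 and -0.35 in p27-/- and 0.02, -0.26 and 0.27 in p27-/-;Sox2+/- samples. The WT samples alone thus covered the range of all the others. Without WT replicate 2, the lowest of them, mt-Nd2 and mt-Nd5 passed, with log2 fold changes of -0.92 and -0.70, and mt-Nd5 also passed with quantile normalization (adjusted p = 0.0467).

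**Figure D5:**
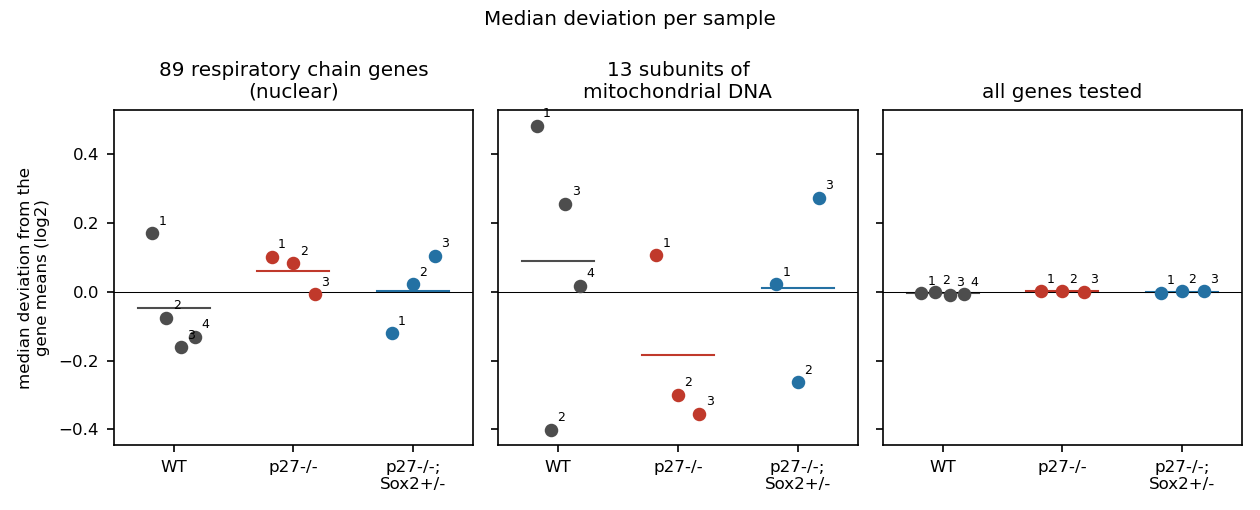
Median deviation from the gene means on the log2 scale (vertical axis) per sample, with the replicate number beside each point and a line at the mean of each genotype, for the 89 nuclear genes, the 13 subunits of mitochondrial DNA and all tested genes. The genotypes overlap in the first 2 panels, WT replicate 1 is the highest sample in both, at 0.17 and 0.48, and all samples lie near 0 over all genes.

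Related genes outside the naming rule gave 3 that passed in p27-/- against WT, all higher, and none in the other comparisons. Over all tested genes 3.16% passed as higher and 51.6% had higher means in p27-/- samples, against which the counts of these lists are to be read. Of 40 tested assembly factors of complexes I to V, Lyrm7, which delivers the Rieske protein to complex III, passed. Its values were 5.82, 6.04, 5.58 and 5.74 in WT, 6.43, 6.17 and 6.31 in p27-/- and 6.17, 5.76 and 5.71 in p27-/-;Sox2+/- samples, with a log2 fold change of 0.51 (SE 0.15, adjusted p = 0.0469). All p27-/- samples were above all WT samples. Of the compound mutant samples, replicates 2 and 3 lay within the WT range, and replicate 1, at 6.17, lay level with the lowest p27-/- sample. Next to it was Uqcc1, also an assembly factor of complex III, at 0.32 (adjusted p = 0.0979), and 28 of the 40 had higher means in p27-/- samples, with a median of 0.12. Of 13 enzymes of the tricarboxylic acid cycle outside complex II, 2 passed, 10 had higher means and the median was 0.14. They were Idh3a, the catalytic subunit of the NAD-dependent isocitrate dehydrogenase, at 0.46 (SE 0.13, adjusted p = 0.0415), and Sucla2, the ADP-forming succinyl-CoA synthetase subunit, at 0.43 (SE 0.12, adjusted p = 0.0456). The highest adjusted p with a library left out was 0.169 for Lyrm7, 0.169 for Idh3a and 0.17 for Sucla2, so none of these calls held for every library left out. Of 18 electron carriers and enzymes of ubiquinone synthesis none passed, with cytochrome c itself, Cycs, at 0.35 (adjusted p = 0.0796) Coq10a at 0.24 (adjusted p = 0.213) and Cyc1 at 0.12 (adjusted p = 0.586), and the median of the list was 0.06. Of 13 genes that regulate respiratory gene transcription none passed, 11 had higher means in p27-/- samples and the median was 0.19. In p27-/- samples Nrf1, nuclear respiratory factor 1, had a log2 fold change of -0.17 (adjusted p = 0.373), Gabpa and Yy1 of 0.19 and 0.25 (adjusted p = 0.172 and 0.159), and Tfam, which acts on mitochondrial DNA, of 0.19 (adjusted p = 0.306). Ppargc1a, the coactivator of mitochondrial biogenesis, had log2 fold changes against WT of 0.10 for p27-/- (adjusted p = 0.516) and 0.32 for the compound mutant (adjusted p = 0.0735).

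As a description without a test, the promoters of the members were searched for binding motifs of factors known to act on respiratory genes. Whether motifs go with the fold changes was not tested. RefSeq start sites of GRCm38.p6 were found for 75 of the 89 tested members, and the 250 bases before each start were read on both strands. CGCATGCG, the core of the nuclear respiratory factor 1 motif, was found in 14.7% of members and 4.0% of all tested genes with a promoter, AAGATGGC, the YY1 core, in 16% and 4.9%, and CCGGAAG, the core bound by ETS factors such as GABPA, in 25.3% and 18.6%. Neither Atp5b nor Cox7c holds any of the 3 in this window, while Atp5e has the ETS core 102 bases and Atp5g2 the nuclear respiratory factor 1 core 41 bases before its start. The 4 sequences are printed because they belong to the members that passed and to the 2 ATP synthase genes with the largest estimates. They lie at chr10:128083057-128083306 on the plus strand for Atp5b, and on the minus strand at chr13:86046796-86047045 for Cox7c, chr2:174464102-174464351 for Atp5e and chr15:102671048-102671297 for Atp5g2, are written 5′ to 3′ along the gene's strand, and carry motifs in capitals.
Atp5b: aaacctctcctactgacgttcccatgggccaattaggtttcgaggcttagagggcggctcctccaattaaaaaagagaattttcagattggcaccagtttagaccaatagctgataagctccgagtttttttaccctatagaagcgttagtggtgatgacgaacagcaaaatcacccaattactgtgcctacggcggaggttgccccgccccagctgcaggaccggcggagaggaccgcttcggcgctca
Cox7c: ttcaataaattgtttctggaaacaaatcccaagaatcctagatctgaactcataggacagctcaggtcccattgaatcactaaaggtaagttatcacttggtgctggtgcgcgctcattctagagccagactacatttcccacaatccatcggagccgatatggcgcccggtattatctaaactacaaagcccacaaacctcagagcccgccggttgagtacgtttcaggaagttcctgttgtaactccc
Atp5e: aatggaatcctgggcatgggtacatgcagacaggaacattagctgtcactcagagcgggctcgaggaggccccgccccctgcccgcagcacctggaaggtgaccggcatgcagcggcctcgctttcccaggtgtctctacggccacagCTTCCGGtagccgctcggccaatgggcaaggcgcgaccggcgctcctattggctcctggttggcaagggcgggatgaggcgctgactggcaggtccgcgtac
Atp5g2: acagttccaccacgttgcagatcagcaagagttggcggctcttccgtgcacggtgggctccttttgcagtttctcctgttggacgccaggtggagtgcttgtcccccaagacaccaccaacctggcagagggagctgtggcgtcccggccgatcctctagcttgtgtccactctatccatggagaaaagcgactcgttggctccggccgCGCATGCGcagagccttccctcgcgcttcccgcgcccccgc
A match of letters is not a binding site, and its absence from 250 bases says nothing of the factor.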

How the data were processed

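RNA of 10 dissected intermediate lobes was amplified with the Ovation V2 kit and sequenced on a HiSeq4000. The authors aligned reads with STAR 2.5.2a, estimated gene counts with RSEM 1.3.30 without strand, so that overlapping and antisense genes cannot be told apart, normalised with DESeq2 1.18.1 on GRCm38 and deposited 1 table of log2 values (-1.89 to 21.5). The transformation is not named in the sources used here. Genes with low values hardly vary in it, so their fold changes may be understated.

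Here the log2 values were taken as deposited. Ensembl identifiers were given symbols for 22709 of 29527 genes (76.9%), with RefSeq GRCm38.p6 positions and promoters, and exon lengths for 86% of tested genes. Genotypes were read from the sample labels and compared with limma 3.58.1 in R 4.3.3 (1 linear model of all samples, eBayes with trend), with Benjamini-Hochberg adjustment over all 17268 genes tested and a threshold of 0.05. The model was tested on simulated data for p27-/- against WT. Of genes changed by a log2 of 0.5, 33.5% passed, and of genes changed by 1, 90.5%. Smaller changes were not simulated, and the upper quartile of the members' estimates in this comparison was 0.19. Tables were summarised in Python 3.11.15 with pandas 2.3.3 and numpy 2.4.6 and drawn with matplotlib 3.10.9. Replicates are mice, and the sources used here do not say whether they share litters. Read depth is unknown, so no counting interval is given.

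Members and lists were chosen with earlier results of these data known. Genes named by rule were those that passed, the 2 with the smallest p in p27-/- against WT and the highest and lowest of each complex, isoform families, genes under the filter, and from each related list those that passed and the 2 with the smallest p. The highest and lowest values of the complex I core are not reported here. Other genes, among them Atp5j, Atp5l, Atp5c1, Atp5d, Uqcrc1, Ndufs3, Ndufa5, Ndufab1, Atp5md, Cox6b1, Cyc1, Pcsk1, Pcsk2, Oacyl, Kdr, Fshb, Tfam, Nrf1 and Ppargc1a, were named after their values were seen. Alternatives were no filter or a mean of at least 50, fits of 2 genotypes alone, eBayes without trend, array weights, quantile normalization, median centring, a replicate block, Xist as a covariate for sex, a length correction, and leaving out each mouse.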

Additional observations from a re-analysis of the deposited data

Results flagged for a closer look

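Among the 4 WT samples, 53 measures (genes named here and list medians) were examined for a sample far from the others, and 2 stood out, where chance gives about 1 in 20, or 2.7. Uqcrb, a small subunit of complex III, had a log2 value of 7.47 in WT replicate 4 against 7.85 to 7.89 in the other WT samples, a gap of 0.903 of the range. The median deviation of the tricarboxylic acid cycle genes was 0.052 in WT replicate 1 against -0.113 to -0.085 in the others, a gap of 0.83 of the range.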

How the results depend on the processing

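In p27-/- against WT, 2 respiratory chain genes passed as reported and 2 with a mean of at least 50, median centring, Xist as a covariate or the length correction. The count was 1 without a filter on low values, 0 with only the 2 genotypes compared, 0 without the trend, 5 with array weights (Atp5b, Atp5e, Atp5l, Cox7c and Uqcrfs1) and 0 with quantile normalization, and it ranged from 0 to 8 with 1 mouse left out, the 8 being without WT replicate 1. With the replicate block it was 0, with an adjusted p in limma of 0.156 for Atp5b and 0.122 for Cox7c. Same-numbered samples of different genotypes had correlations of their deviations between -0.238 and 0.182. Samples of unlike number had correlations between -0.191 and 0.265, so sharing a number did not go with higher correlations. Whether same-numbered mice share a litter or batch was not tested. The cause of the changes in the count was not tested either. The median log2 fold change of the members kept its sign in every alternative, at 0.064 to 0.195 in p27-/- against WT, 0.007 to 0.119 in p27-/-;Sox2+/- against WT and -0.106 to -0.005 between the mutants, and no member passed in the last 2 comparisons in any alternative. Of single genes, none changed sign while passing. Over all genes, 1343 passed in p27-/- against WT, but 831 without the filter, 807 with only the 2 genotypes, 595 with the block, 609, 572 and 403 without p27-/- replicates 1, 2 and 3, and 815 and 690 without WT replicates 3 and 4. More passed with array weights, 1764, and without WT replicates 1 and 2, 1709 and 1543. In p27-/-;Sox2+/- against WT 468 passed, but 1240 with array weights, 260 with only the 2 genotypes, 312 without the filter, 209 with the block and from 80 to 658 with 1 mouse left out. Between the mutants 25 passed, and from 0 to 283 over all alternatives. With 3 or 4 mice a genotype and unknown depth, differences of the size seen here lie near the spread between mice.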
